A study of Mus musculus with 12 samples.

Results

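The PYHIN genes of the mouse, that is Aim2 and the interferon-inducible p200 genes, were followed in bulk RNA sequencing of Sp37A3 cells, an immature dendritic cell (DC) line derived from mouse spleen and kept in GM-CSF and M-CSF. The 9 genes Aim2, Ifi203, Ifi204, Ifi205, Ifi207, Ifi209, Ifi211, Ifi213 and Mndal were taken by symbol, as members of a gene family. All 9 were found among the 55401 genes of the count table, and 8 of them had enough counts to be tested, Ifi213 being the exception. CtrV cells had received an empty vector and are labelled as expressing Siglec-E, an inhibitory receptor for sialic acid. EKO cells had been edited in the Siglece gene with CRISPR/Cas9 from a lentiviral vector and are a pool of edited clones. Each line was either left without antigen (ut) or pulsed with ovalbumin (OVA, 0.1 mg/ml for 2 h), and all cells, controls included, were then stimulated with LPS for 24 h. There were 3 libraries in each of the 4 groups and 12 in all, with 27116201 to 39698572 counts per library. Nothing in the descriptions says that the replicates were separate cultures of separate origin, so p-values measure the spread between these libraries only. Siglece mRNA was not lower in the libraries labelled EKO, at 166 to 235 CPM (counts scaled to library size) against 150.015 to 163 CPM in CtrV libraries. With OVA it was higher, with a log2 fold change of 0.31 (edgeR adjusted p = 0.011). The authors report that the pooled clones were checked for little or no Siglec-E expression, which mRNA levels do not measure. The directions below are those of the labels.

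PYHIN proteins combine a pyrin domain, through which they bind other pyrin proteins, with a HIN domain that binds DNA, although some members carry only the pyrin domain. Aim2 senses double-stranded DNA in the cytosol and builds an inflammasome with the adaptor ASC (Pycard) and caspase-1, which matures interleukin-1β and cleaves gasdermin D. The p200 genes are known as type I interferon-inducible genes of myeloid cells, and the family has expanded into a tandem array in the mouse. In the GENCODE annotation of GRCm38 this array lies on chromosome 1, from Aim2 at 173350879 to Ifi205 at 174031810, and holds 13 family genes in 680932 bases. Besides the 9 genes it contains Ifi202b, Ifi206, Ifi208 and Ifi214.

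The promoters are shown first, since near-identical promoters are annotated for Mndal and Ifi203, which differed between the lines in opposite directions. Near-identical promoters are also annotated for genes that both had higher means in EKO-labelled cells. These are Ifi206 and Ifi213 (98.5% identity) and Ifi209 and Ifi214 (95.7%). RefSeq promoter sequences of GRCm38.p6, from 250 bases before to 50 bases after an annotated start, were matched for 8 of the 9 genes. Mndal and Ifi203, which had the clearest fall and a clear rise in EKO-labelled cells, had 94.3% identity over their aligned promoters. The capitals mark a match to GAAANNGAAA, the core of an interferon-stimulated response element (ISRE), searched on both strands. Both genes have 2 annotated starts, and the starts whose promoters align over most of their length are shown. At the other start, Mndal had a match on the other strand and Ifi203 had none. In the GENCODE annotation, the Mndal gene begins at 173942491, which lies inside the Ifi203 window shown. The 2 windows can therefore not be taken as separate promoters of 1 gene each.
Mndal (chr1:173880138-173880437, minus strand): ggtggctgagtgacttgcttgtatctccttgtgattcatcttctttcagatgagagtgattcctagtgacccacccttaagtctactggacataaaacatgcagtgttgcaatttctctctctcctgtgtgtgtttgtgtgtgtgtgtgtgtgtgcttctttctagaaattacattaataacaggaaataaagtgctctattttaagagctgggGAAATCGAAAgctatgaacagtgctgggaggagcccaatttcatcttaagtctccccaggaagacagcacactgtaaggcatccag
Ifi203 (chr1:173942443-173942742, minus strand): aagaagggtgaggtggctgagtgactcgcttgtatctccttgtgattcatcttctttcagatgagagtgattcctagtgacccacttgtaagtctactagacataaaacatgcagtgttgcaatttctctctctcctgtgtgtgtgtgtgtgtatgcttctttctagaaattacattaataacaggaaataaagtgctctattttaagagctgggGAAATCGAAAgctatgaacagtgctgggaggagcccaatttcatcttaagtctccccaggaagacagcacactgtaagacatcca
For 4 further genes, the bases around the same motif are given, because the family shares a short block around it. Ifi205 and Ifi211, neither of them called with or without OVA, had promoters with 93.1% identity over an overlap of 203 bases. Both carried GAAATTGAAA. It began at -134 from the annotated start in Ifi205 and at -37 in Ifi211. Ifi207 and Ifi213 carried GAAATCGAAA, as did Mndal and Ifi203.
Ifi207 (chr1:173741816-173741875, minus strand): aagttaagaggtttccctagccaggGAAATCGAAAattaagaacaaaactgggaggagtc
Ifi213 (chr1:173599311-173599370, minus strand): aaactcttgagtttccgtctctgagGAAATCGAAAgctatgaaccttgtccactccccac
Ifi205 (chr1:174031855-174031914, minus strand): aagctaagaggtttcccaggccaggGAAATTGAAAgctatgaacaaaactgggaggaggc
Ifi211 (chr1:173913049-173913108, minus strand): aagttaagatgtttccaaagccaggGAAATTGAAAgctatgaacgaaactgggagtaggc
The ISRE core was present in promoters of 6 of the 8 genes, against 3.99% of 27025 mouse genes, where any start counts, and 3.44% of 32851 promoters. Ifi205 had a further match on the other strand after its start. The exact letters GAAATCGAAA stood in 16 of the promoters (0.0487%), and 7 of the 16 genes were family members. As several of the promoters are near copies of each other, these matches are not independent of each other. In Aim2 and Ifi209 these letters were not in the window. Ifi209 alone held GGGANNTTCC, an NF-κB site found in 1.47% of promoters. Of the genes with the ISRE core, Ifi203 was called higher and Mndal lower in EKO-labelled cells, with and without OVA. Ifi205, which also had lower values, was not called in either comparison. Whether the motif takes part in these differences was not tested.

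**Figure D1:**
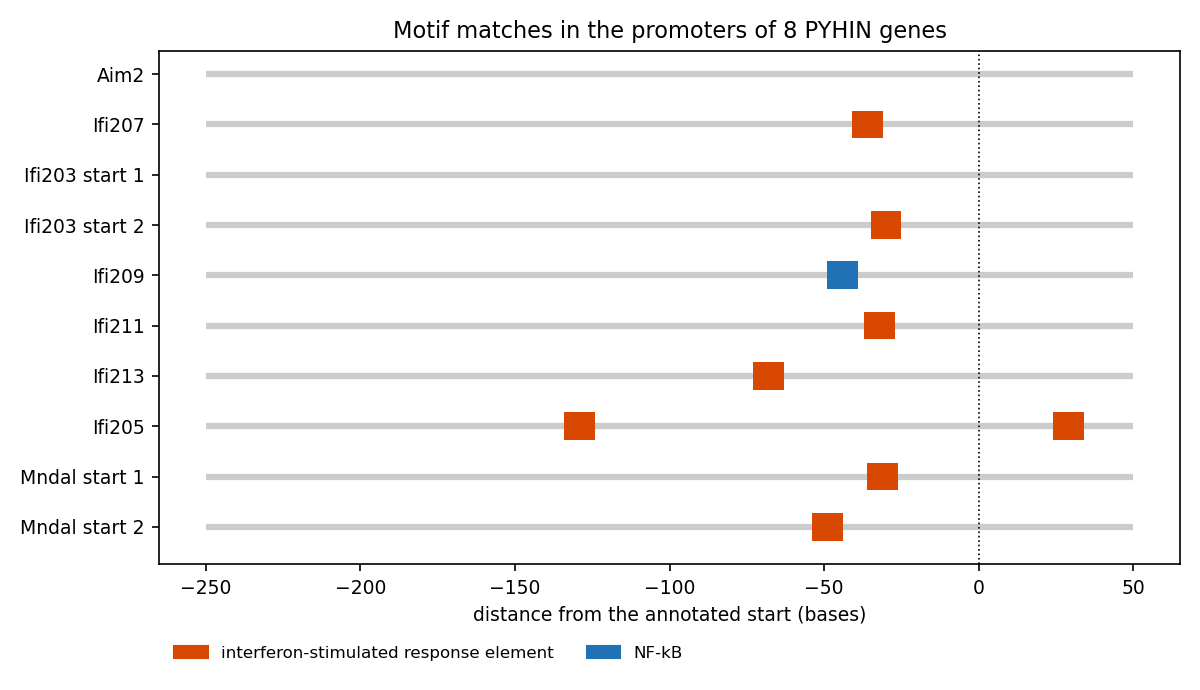
Motif matches in the promoters of 8 PYHIN genes, by distance in bases from each annotated start (x axis), with 1 line per start. Matches to the interferon-stimulated response element (orange) lay before the start in 6 genes, including Mndal and Ifi205, which also had a match after the start; the NF-κB site (blue) was found in Ifi209.

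To see which PYHIN genes carry most of the family's mRNA, levels were divided by exon length and given as CPM per kilobase. In unpulsed CtrV cells Ifi207 was highest with 15.1 ± 0.59 (SD, n = 3), followed by Aim2 with 9.07 ± 0.31 and Mndal with 7.60 ± 0.40, and the ranges of these 3 genes did not overlap. Ifi204 (2.64 ± 0.63) and Ifi211 (1.30 ± 0.41) came next. Ifi205, Ifi203 and Ifi209 lay between 0.289 and 0.598 on average, each overlapping its neighbour, and Ifi213 was near the limit of detection with 0.0205. In unpulsed EKO-labelled cells Ifi207 (25.4 ± 9.17) and Aim2 (13.4 ± 2.37) were again at the top, with overlapping ranges. Ifi204 (6.72 ± 2.71) came next, and Mndal (2.66 ± 0.53) could not be separated from Ifi211 (2.63 ± 1.10). Ifi205 was placed eighth in the EKO-labelled groups, below Ifi203 and Ifi209. The orders with OVA were alike, except that Ifi204 overlapped Ifi211 in CtrV cells, and that in EKO-labelled cells Ifi207 lay clear of Aim2, and Ifi209 and Ifi203 exchanged places. The CPM summed over the 9 genes were 129 ± 5.90 and 138 ± 30.4 in unpulsed and OVA-pulsed CtrV cells, against 186 ± 58.0 and 168 ± 22.2 in EKO-labelled cells, with overlapping ranges. Mndal took 18.6 to 22.8% of that sum in CtrV libraries and 4.62 to 6.16% in EKO-labelled libraries.

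**Figure D2:**
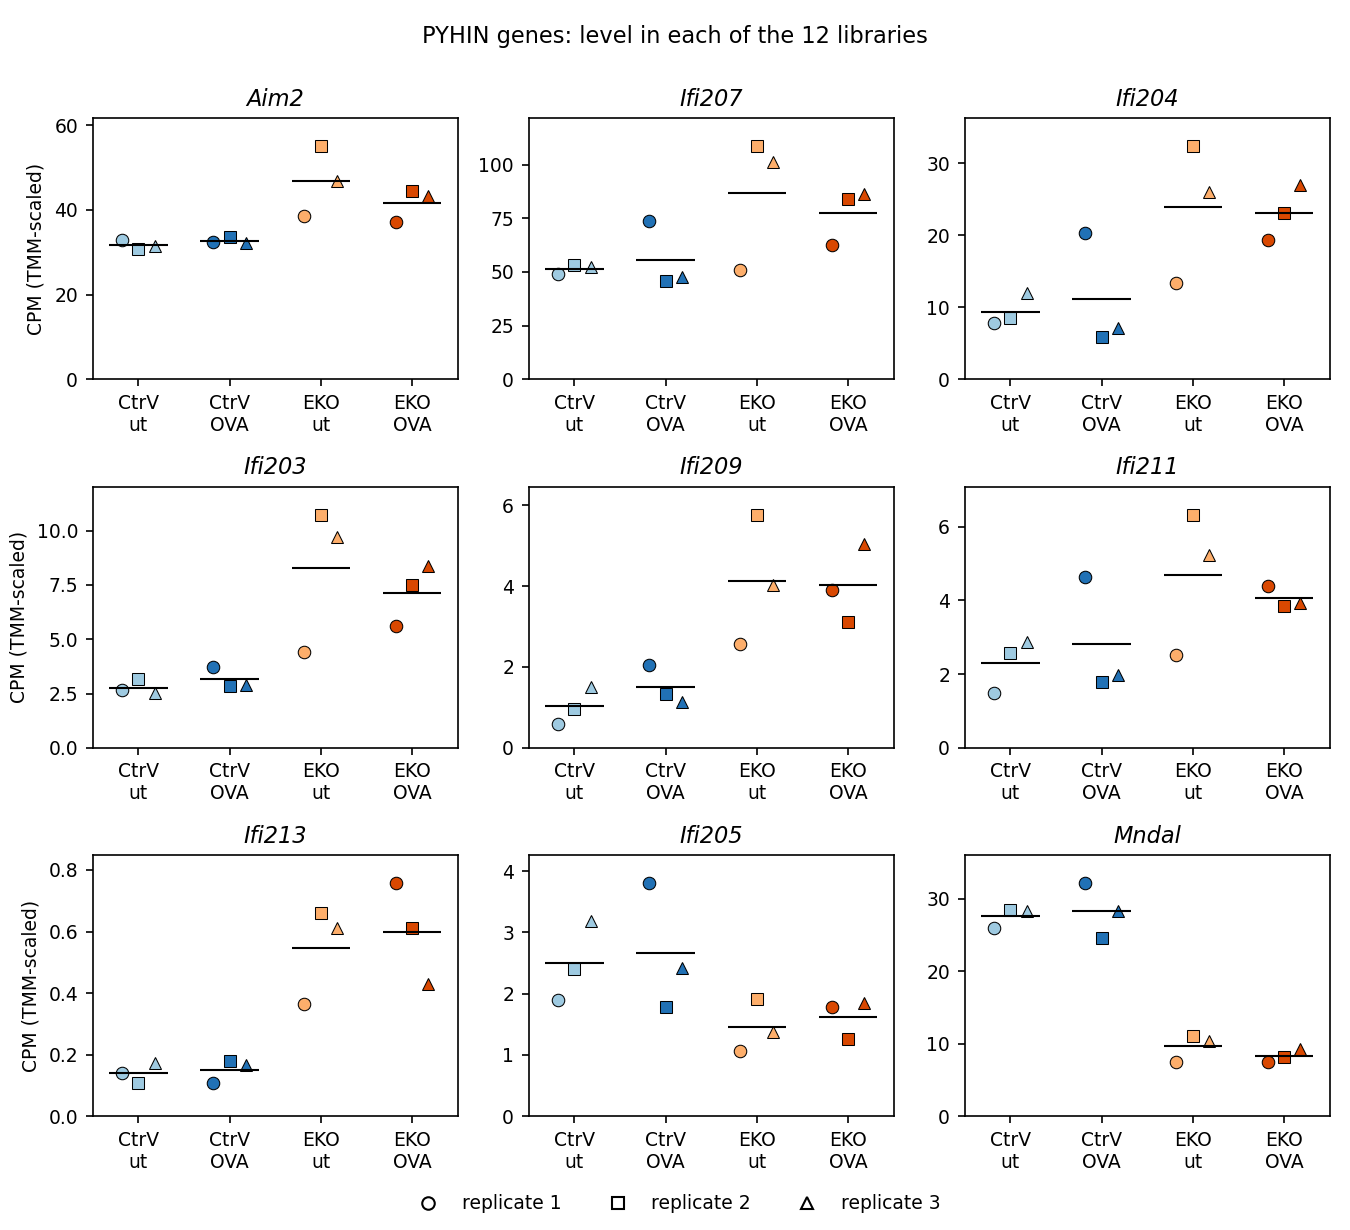
Level of each PYHIN gene in CPM (y axes, from 0) in the 12 libraries, by group (x axes). Symbols mark the replicate number and horizontal lines the group means of 3 libraries; Mndal is lower in all 6 EKO-labelled libraries, and replicate 1 is the highest CtrV OVA library for Ifi204, Ifi207 and Ifi211.

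Aim2, the DNA sensor, was moderately higher in EKO-labelled cells and varied little in CtrV cells. In CtrV cells, replicates 1, 2 and 3 had 33.0, 30.8 and 31.5 CPM unpulsed and 32.4, 33.6 and 32.2 CPM with OVA. EKO-labelled cells had 38.5, 55.1 and 46.8 CPM unpulsed and 37.2, 44.5 and 43.2 CPM with OVA. All 6 EKO-labelled libraries therefore lay above all 6 CtrV libraries. The log2 fold change was 0.55 (SE 0.09, edgeR adjusted p = 0.00081) in unpulsed and 0.34 (SE 0.09, edgeR adjusted p = 0.012) in OVA-pulsed cells, or 1.46-fold and 1.27-fold. The latter call was lost without EKO_OVA replicate 3 (edgeR adjusted p = 0.056), CtrV_OVA replicate 2 (0.074) or CtrV_OVA replicate 3 (0.052).

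Among the DNA-binding p200 genes, Ifi203 and Ifi209 rose with and without OVA. Ifi203 had 2.68, 3.15 and 2.50 CPM in unpulsed and 3.72, 2.84 and 2.91 CPM in OVA-pulsed CtrV cells. In EKO-labelled cells it had 4.43, 10.7 and 9.71 CPM unpulsed and 5.62, 7.49 and 8.35 CPM with OVA. All 6 of these libraries were above the CtrV libraries, and unpulsed replicate 1 was closest to them. The log2 fold change was 1.55 (SE 0.26, edgeR adjusted p = 0.00072) without and 1.14 (SE 0.25, edgeR adjusted p = 0.0037) with OVA. Ifi209, also called Pyhin1, was a low gene with 0.599, 0.966 and 1.51 CPM in unpulsed and 2.05, 1.33 and 1.13 CPM in OVA-pulsed CtrV cells. Its levels in EKO-labelled cells were 2.56, 5.77 and 4.03 CPM unpulsed and 3.89, 3.12 and 5.04 CPM with OVA. The groups did not overlap here either, and Ifi209 had the highest fold change of the 8 tested genes, with a log2 of 2.00 (SE 0.38, edgeR adjusted p = 0.0015) unpulsed and 1.38 (SE 0.34, edgeR adjusted p = 0.0069) with OVA. Of its annotated 50-base stretches 33.7% also occur in another gene, mainly Ifi214, so that reads may have been exchanged between this pair; summed over both genes, the means were 1.27 and 1.79 CPM in CtrV against 4.78 and 4.79 CPM in EKO-labelled cells.

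Ifi204, the mouse p200 gene most often set beside human IFI16 as a DNA sensor acting with STING, and Ifi207 rose in unpulsed cells, while the call in OVA-pulsed cells turned on 1 control library and, for Ifi204, on the fit. Ifi204 had 7.75, 8.48 and 11.9 CPM in unpulsed CtrV cells against 13.4, 32.4 and 26.0 CPM in unpulsed EKO-labelled cells, a log2 fold change of 1.36 (SE 0.45, edgeR adjusted p = 0.030). With OVA, CtrV replicate 1 had 20.3 CPM, far above replicates 2 and 3 with 5.88 and 7.15 CPM, and above the lowest of the EKO-labelled libraries, which had 19.3, 23.1 and 26.99 CPM. The log2 fold change with OVA was 1.03 (SE 0.44) and missed the threshold (edgeR adjusted p = 0.079). Without CtrV_OVA replicate 1 it was 2.03 (edgeR adjusted p = 5.8e-05). With that library kept, Ifi204 also passed with limma voom (adjusted p = 0.033) and, in edgeR, without the filter (0.017) and in the compared groups by themselves (0.046). The unpulsed call in turn was lost without any of 5 of the 6 libraries, the exception being EKO_ut replicate 1, with adjusted p of up to 0.15 in edgeR. Of the 50-base stretches of Ifi204, 20.0% occur in another gene, 14.8% in Ifi211.

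Ifi207, the most abundant p200 gene, had 49.2, 53.1 and 52.2 CPM in unpulsed CtrV cells and 51.0, 109 and 101.3 CPM in unpulsed EKO-labelled cells. Replicate 1 of the latter lay within the CtrV range, and the other two were higher. The log2 fold change was 0.73 (SE 0.26, edgeR adjusted p = 0.040), a call that was lost without any of the 5 libraries other than EKO_ut replicate 1 (adjusted p of up to 0.19 in edgeR), with limma voom (0.053) and with DESeq2 (0.067). With OVA the levels were 73.9, 45.5 and 47.8 CPM in CtrV and 62.5, 84.0 and 86.2 CPM in EKO-labelled cells, with overlap between the groups and a log2 fold change of 0.44 (SE 0.26, edgeR adjusted p = 0.19). Without CtrV_OVA replicate 1 it was 0.89 (edgeR adjusted p = 0.0026).

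Ifi211, listed as Mnda in other catalogues, did not pass the test in either comparison. It had 1.48, 2.57 and 2.88 CPM in unpulsed CtrV cells against 2.53, 6.33 and 5.22 CPM in unpulsed EKO-labelled cells, with a log2 fold change of 1.03 (95% interval 0.10 to 1.96, edgeR adjusted p = 0.067). With OVA it had 4.64, 1.78 and 1.99 CPM in CtrV and 4.39, 3.86 and 3.93 CPM in EKO-labelled cells, a log2 fold change of 0.51 (95% interval -0.38 to 1.39, edgeR adjusted p = 0.32). CtrV_OVA replicate 1 was the highest of these 6 libraries, and without it the value was 1.31 (edgeR adjusted p = 0.0069). Without EKO_ut replicate 1 the unpulsed value was 1.42 (edgeR adjusted p = 0.0093). Ifi211 is the gene whose reads are the least certain, since 72.8% of its 50-base stretches occur in another gene, 44.7% in Ifi205 and 30.1% in Ifi204.

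Ifi213, also called Pydc4, was below the filter. It had 4, 3 and 5 counts in unpulsed and 4, 6 and 5 counts in OVA-pulsed CtrV libraries, against 10, 20 and 20 counts and 29, 19 and 14 counts in the EKO-labelled libraries. The counts were higher in each EKO-labelled library than in any CtrV library, although totals differed. In a fit of 28881 genes without the filter the log2 fold change was 1.94 (SE 0.43, edgeR adjusted p = 0.0013) without and 1.98 (SE 0.39, edgeR adjusted p = 0.00039) with OVA. Of its 50-base stretches 15.6% occur in another gene, 13.6% in Ifi208 and 4.47% in Ifi206, which was higher in all EKO-labelled libraries. Whether reads were exchanged between these genes was not tested.

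In contrast, Mndal, which encodes a protein like the human myeloid nuclear differentiation antigen, was much lower in EKO-labelled cells. It had 25.9, 28.4 and 28.4 CPM in unpulsed and 32.2, 24.5 and 28.2 CPM in OVA-pulsed CtrV cells. EKO-labelled cells had 7.47, 11.1 and 10.4 CPM unpulsed and 7.55, 8.13 and 9.30 CPM with OVA. The highest EKO-labelled library was below the lowest CtrV library, with no overlap in either comparison. The log2 fold change was -1.51 (SE 0.14, edgeR adjusted p = 1.0e-05) unpulsed and -1.77 (SE 0.14, edgeR adjusted p = 2.9e-06) with OVA, and the call held without each single library and with all other settings. Mndal spans positions 173849126 to 173942491 of chromosome 1 on the minus strand. This span contains the whole of Ifi211 and most of Ifi203, both on the same strand. Mndal shares 37 exon bases with Ifi203, and Ifi211 shares no exon bases with another gene. Summed over Mndal and Ifi203, the level was 30.3 ± 1.56 and 31.5 ± 4.27 CPM in unpulsed and OVA-pulsed CtrV cells against 18.0 ± 5.32 and 15.5 ± 2.25 CPM (SD, n = 3) in the EKO-labelled groups. In CPM, the rise of Ifi203 was therefore smaller than the fall of Mndal, both genes being at different levels in CtrV cells. Of the 50-base stretches of Mndal, 19.6% occur in another gene. In bulk samples, fewer cells with the mRNA and less mRNA per cell cannot be told apart.

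Ifi205 was the other gene with lower values. It had 1.90, 2.396 and 3.19 CPM in unpulsed and 3.80, 1.78 and 2.42 CPM in OVA-pulsed CtrV cells, against 1.06, 1.91 and 1.37 CPM and 1.78, 1.25 and 1.84 CPM in EKO-labelled cells. The groups overlapped in both comparisons. The log2 fold change was -0.77 (95% interval -1.49 to -0.05, edgeR adjusted p = 0.077) unpulsed and -0.72 (95% interval -1.39 to -0.05, edgeR adjusted p = 0.074) with OVA. Without EKO_ut replicate 2 the unpulsed value was -1.17 (edgeR adjusted p = 0.020) and without CtrV_ut replicate 1 it was -1.02 (edgeR adjusted p = 0.031), whereas without CtrV_OVA replicate 2 the value with OVA was -0.96 (edgeR adjusted p = 0.038). Summed with Ifi211, with which it shares 18.5% of its 50-base stretches, the level was 4.81 and 5.47 CPM in CtrV and 6.14 and 5.68 CPM in EKO-labelled cells, with overlapping ranges.

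**Figure D3:**
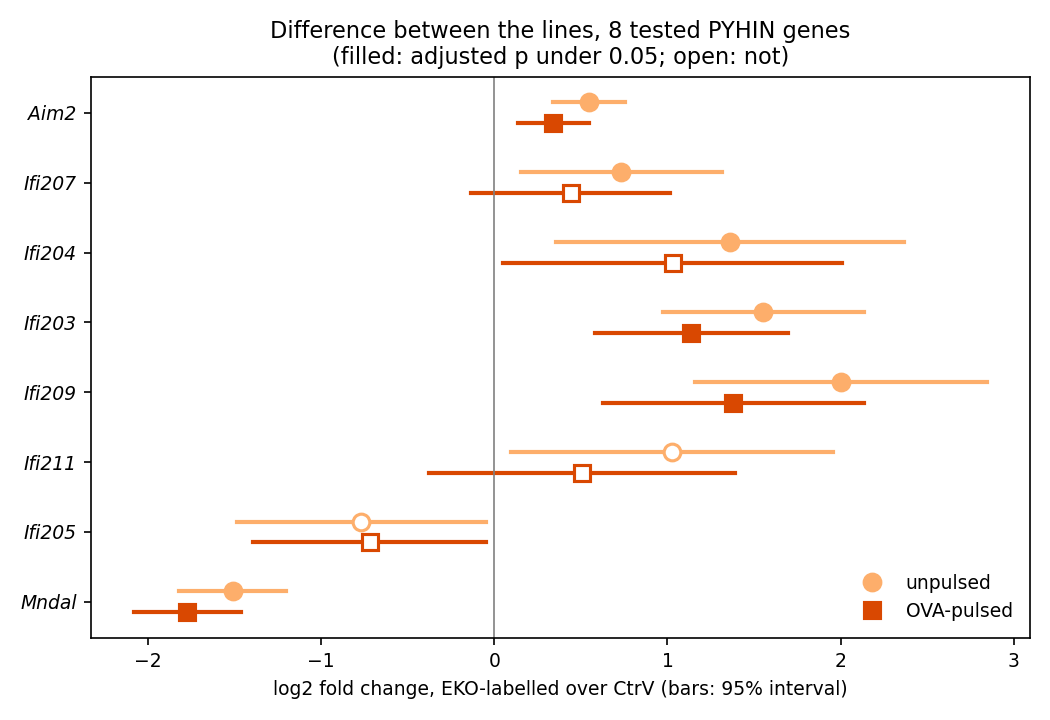
Log2 fold change of EKO-labelled over CtrV cells (x axis) for the 8 tested PYHIN genes, unpulsed (circles) and OVA-pulsed (squares), with 95% intervals. Filled symbols passed an adjusted p of 0.05; Mndal lies below 0 and Aim2, Ifi203 and Ifi209 above 0 in both.

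Taking the 8 tested genes as a family, the OVA-pulsed lines differed in 4 at an adjusted p under 0.05. Of these, 3 were higher (Aim2, Ifi203 and Ifi209), where 25.1% of all 14079 tested genes were called higher, and 1 was lower (Mndal), where 21.9% were. In unpulsed cells 6 passed, 5 of them higher (the same 3 with Ifi204 and Ifi207; background 24.5%) and Mndal lower (background 21.9%). The median log2 fold change of the 8 genes was 0.47 with OVA and 0.88 without, against 0.00 for all tested genes in both comparisons. To use all libraries, the difference between the lines was also averaged over pulsing, a comparison added after the values had been seen. There, 6 genes were called higher (background 31.3%) and 2 lower (background 29.1%), the latter being Mndal (log2 fold change -1.64, SE 0.10, edgeR adjusted p = 1.8e-07) and Ifi205 (-0.74, SE 0.22, edgeR adjusted p = 0.014). Ifi211 passed narrowly (0.77, SE 0.29, edgeR adjusted p = 0.040), and its call was lost without any of 9 of the 12 libraries. The averaged call of Ifi207 was lost without EKO_ut replicate 2, CtrV_OVA replicate 2 or CtrV_OVA replicate 3 (edgeR adjusted p of 0.053, 0.063 and 0.057), and that of Ifi205 without CtrV_ut replicate 3 (0.051).

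Whether OVA pulsing changed the family was asked within each line and as a dependence of the line difference on pulsing. None of the 8 genes, and none of the 14079 genes tested, passed an adjusted p of 0.05 in edgeR, DESeq2 or limma voom in these 3 comparisons (0% called). At an unadjusted p of 0.05, edgeR called 231 genes (1.64%) in CtrV cells, 394 (2.8%) in EKO-labelled cells and 269 (1.91%) for the dependence, with no PYHIN gene among them. For Aim2 the difference between the line effects was -0.21 on the log2 scale, with a 95% interval of -0.50 to 0.09. For Mndal it was -0.26 with an interval of -0.70 to 0.17. For the others the intervals were wider, from -1.81 for Ifi211 at the lower end to 1.06 for Ifi204 at the upper end.

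Within the groups, the PYHIN genes scattered together, Mndal and Ifi205 included. EKO_ut replicate 1 was the lowest of its 3 libraries for 8 of 8 tested genes, a position it held for 38.9% of all tested genes, and EKO_ut replicate 2 was the highest for 8 of 8, against 25.9%. CtrV_OVA replicate 1 was the highest for 7 of 8, against 36.9%. When each gene's deviations from its group means were compared over the 12 libraries, Pearson's r was above 0 in all 28 gene pairs, from 0.24 to 0.95 with a median of 0.78. On the log2 CPM themselves, which include the difference between the lines, r was above 0 in 16 of the 28 pairs. Ifi203 and Mndal had r = -0.78 on levels and 0.91 on deviations, and Ifi205 and Ifi211 had -0.02 and 0.88. Thus these pairs, whose annotated promoters are near copies over the aligned bases, moved together from library to library. Averaged over pulsing, the genes of each pair moved in opposite directions between the lines. All of these values share the same 12 libraries, and part of the pairs share sequence. Of the other tested genes, 48.0% had deviations with an r above 0, and 15.1% above 0.5, to the mean profile of the family. Leaving out the 4 libraries numbered 1, an alternative chosen after seeing the data, 7 of the 8 genes were called with OVA and 8 of 8 without, where 42.2% and 41.8% of all tested genes were called. These libraries include EKO_ut replicate 1 and CtrV_OVA replicate 1, described above as the lowest and the highest, so that nothing is read from the higher counts.

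**Figure D4:**
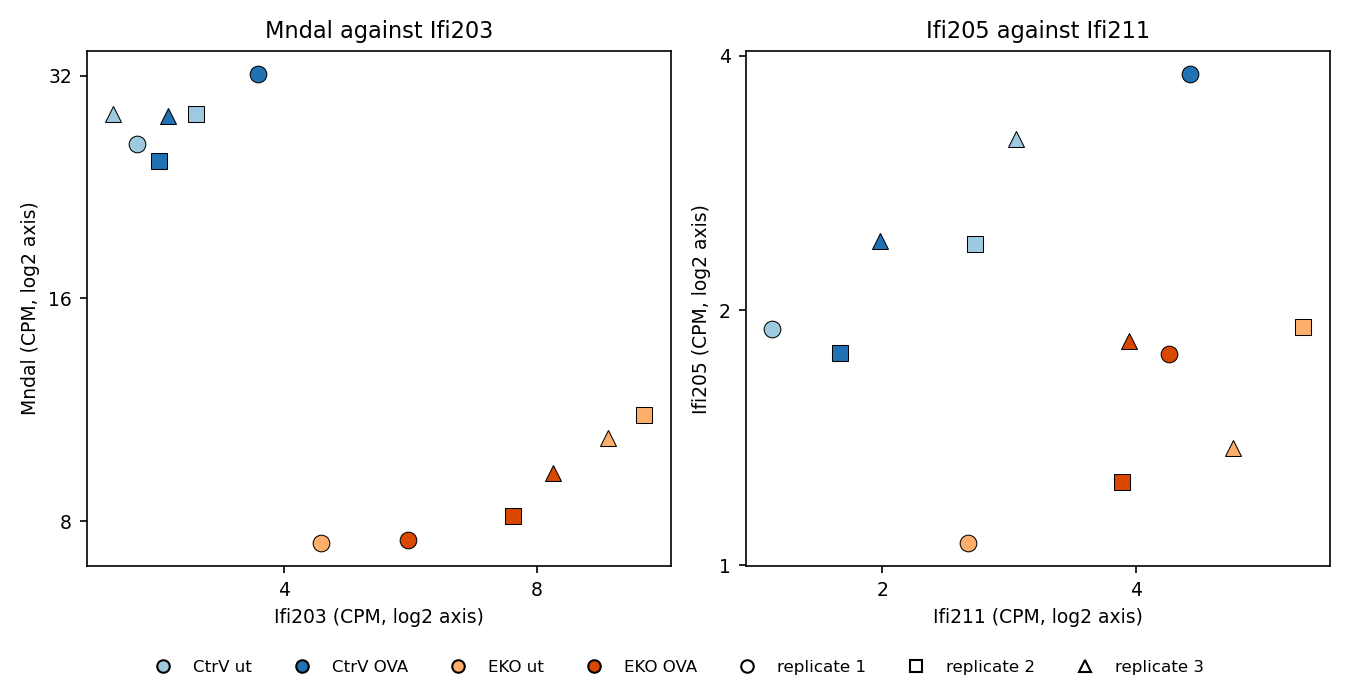
Mndal against Ifi203 (left) and Ifi205 against Ifi211 (right) in CPM on log2 axes, with 1 point per library, coloured by group and shaped by replicate number. Within EKO-labelled cells libraries with more Ifi203 have more Mndal, and the 6 EKO-labelled libraries lie apart from the 6 CtrV libraries for Mndal and Ifi203.

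The genes whose levels were most like the family's mean standardised log2 CPM over the 12 libraries were Mpeg1 (r = 0.95), Tgtp1 (0.94), Cmpk2 (0.94), Laptm4a (0.93) and Tgtp2 (0.92). By deviations from the group means they were Xaf1 (0.99), Phf11a, Ifit1, Irf7 and Atrip (0.98 each). The 5 genes named by each measure were different.

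Of the other 4 genes of the array, Ifi206 rose in EKO-labelled cells. It had 1, 0 and 2 counts in unpulsed and 13, 5 and 2 counts in OVA-pulsed CtrV libraries, against 29, 113 and 86 counts and 68, 105 and 83 counts in EKO-labelled libraries. The EKO-labelled libraries were all higher (edgeR adjusted p = 4.0e-05 without and 8.0e-05 with OVA). Ifi206 reached the expression filter only through the EKO-labelled libraries, having at most 0.351 CPM in CtrV libraries. Its p-values are therefore no separate support for the rise. Ifi214 did not pass in either comparison (edgeR adjusted p of 0.096 without and 0.085 with OVA), but was called higher on the average over pulsing (log2 fold change 1.36, SE 0.43, edgeR adjusted p = 0.019) and in edgeR without the filter (0.048 and 0.042). Ifi214 too reached the filter only through EKO-labelled libraries, having at most 0.594 CPM in CtrV libraries. Ifi202b and Ifi208 had at most 2 counts in any library.

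The inflammasome list holds Aim2's adaptor and caspase with their substrates, and also other sensors and cytokine genes. Of its 14 tested genes of 15 listed, 8 rose and 2 fell in the EKO-labelled groups, with and without OVA. Of all tested genes, 25.1% were called higher and 21.9% lower with OVA, and 24.5% and 21.9% without. The median log2 fold change of the list was 0.27 with OVA and 0.35 without. Casp1, the caspase activated by Aim2, rose from 45.1 ± 3.57 to 86.6 ± 2.42 CPM with OVA (log2 fold change 0.94, SE 0.09, edgeR adjusted p = 1.0e-05). Its substrate Il1b rose from 623 ± 216 to 2483 ± 53.6 CPM (2.02, SE 0.19, edgeR adjusted p = 1.1e-05). The 2 genes that fell were Pycard, the adaptor ASC, from 185 ± 15.0 to 116 ± 15.2 CPM (-0.69, SE 0.13, edgeR adjusted p = 0.0014), and Gsdmd, the pore protein gasdermin D, from 84.3 ± 1.45 to 32.4 ± 1.51 CPM (-1.38, SE 0.08, edgeR adjusted p = 3.3e-07). Another 5 of the 8 genes that rose, Il1a, Casp4, Il18bp, Naip2 and Naip5, are not part of the Aim2 inflammasome. Of these, Casp4 reached the filter only through EKO-labelled libraries. Its means were 0.247 CPM in unpulsed and 0.257 CPM in OVA-pulsed CtrV cells, so its calls are no separate support for a rise. For Nlrp3, a sensor that uses the same adaptor, the means were 203 ± 10.5 and 206 ± 5.47 CPM, and it was not called.

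Among 15 genes of cytosolic DNA sensing, 6 were higher and 4 lower with OVA, and 6 were higher and 5 lower without, with medians of -0.04 and -0.08. Of all tested genes, 25.1% were called higher and 21.9% lower with OVA, and 24.5% and 21.9% without. The same shares apply to the interferon list below. Zbp1, a sensor of Z-form nucleic acid, rose (log2 fold change 2.89, SE 0.47, edgeR adjusted p = 0.00054, with OVA), as did the exonuclease Trex1 (1.68, SE 0.28, edgeR adjusted p = 0.00069). The adaptor STING, listed as Tmem173, fell (-0.63, SE 0.04, edgeR adjusted p = 1.2e-06), and Cgas, the enzyme upstream of it, was not called (0.04, SE 0.13, edgeR adjusted p = 0.81). Of 12 genes of type I interferon signalling 8 were higher and 1 lower with OVA, and 9 were higher and 1 lower without, with medians of 0.61 and 0.57. Among the higher genes, Ifnb1 reached the filter only through EKO-labelled libraries. Its means were 0.221 CPM in unpulsed and 0.147 CPM in OVA-pulsed CtrV cells, so its calls are no separate support for a rise. Irf7, a transcription factor of interferon genes, rose from 46.5 ± 17.7 to 235 ± 32.9 CPM (2.28, SE 0.35, edgeR adjusted p = 0.00035), and Ifnar2, a receptor chain, fell (-0.31, SE 0.06, edgeR adjusted p = 0.0014). Whether these genes take part in the differences of the PYHIN genes was not tested.

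**Figure D5:**
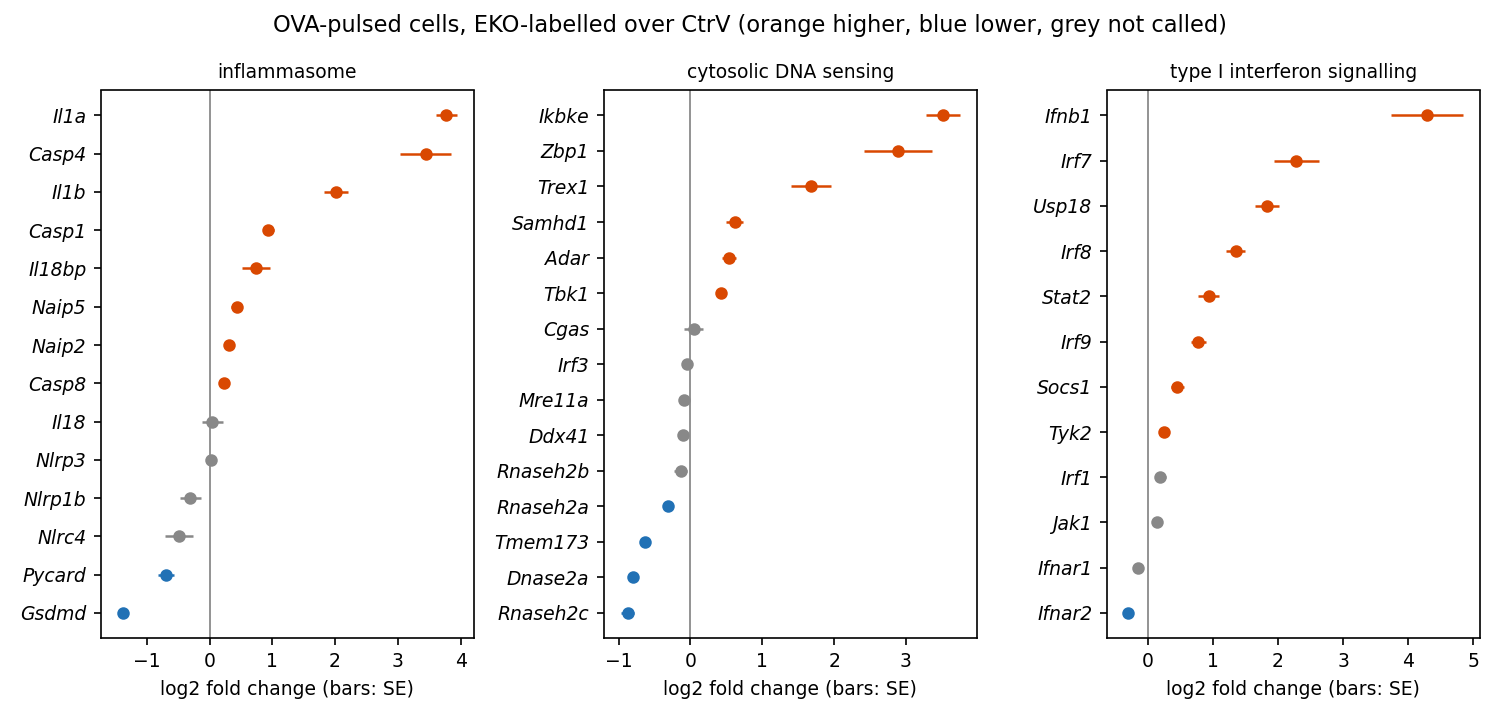
Log2 fold change with SE of EKO-labelled over CtrV cells pulsed with OVA (x axes) for the tested genes of inflammasome, cytosolic DNA sensing and type I interferon signalling lists. Orange genes were called higher, blue genes lower and grey genes neither; Gsdmd and Pycard stand at the lower end of the inflammasome list.

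Markers were checked for the labelled cell type. Of 13 DC markers 12 were expressed above the filter, and Clec9a was at or near 0. Their summed levels were 21089 to 24022 CPM over all groups, most of it from Cd74, while 6 of them were called higher and 2 lower in EKO-labelled cells with OVA, and 5 higher and 2 lower without. Among the higher markers, Xcr1 reached the filter only through EKO-labelled libraries. Its means were 0.279 CPM in unpulsed and 0.362 CPM in OVA-pulsed CtrV cells, so its calls are no separate support for a rise. All 7 macrophage markers were also expressed, with sums of 1585 to 1782 CPM in CtrV and 2207 to 2451 CPM in EKO-labelled libraries. Of these, 5 were called higher with and without OVA, whereas Adgre1 and Mertk were not called. For both marker lists, the shares of all tested genes were 25.1% higher and 21.9% lower with OVA. Without OVA they were 24.5% and 21.9%. Markers of T cells, B cells, neutrophils and fibroblasts did not pass the filter, and their sums reached at most 1.57 CPM. T cell sums were 0.0603 to 0.270 CPM in CtrV and 0.418 to 1.57 CPM in EKO-labelled libraries. B cell sums were 0.0358 to 0.211 CPM and 0.450 to 1.07 CPM, again without overlap between the lines. For neutrophils and fibroblasts the sums were at most 0.0989 CPM. The part of these markers in the results was not tested.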

How the data were processed

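RNA sequencing of 12 Sp37A3 libraries in 4 groups of 3 was used, and groups and replicate numbers were taken from the labels. The values deposited by the authors were raw read counts, in a single table of genes. Per the labels and methods, reads from a stranded mRNA kit were aligned to mm10 with STAR 2.7.0c, which reported 1 location for reads fitting up to 10 places, and counted with featureCounts on Ensembl 101 exons; whether strand was used is not stated. Reads shared by near-identical PYHIN genes can thus fall on either gene. All columns were used.

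Of 55401 genes, 14079 exceeded a log2 CPM of 0 in 2 or more libraries. Tests used edgeR 4.0.16 (R 4.3.3): TMM normalization, quasi-likelihood fit over 12 libraries with group and replicate number as terms, and Benjamini-Hochberg correction across the tested genes, called at an adjusted p under 0.05. The limits used by the authors were not given in the text used here. Deviations of same-numbered libraries correlated at 0.448, 0.292 and 0.289 (replicates 1 to 3) between the OVA-pulsed lines, and at 0.060, -0.012 and 0.263 between the unpulsed lines. Pulsed and unpulsed libraries of the same number correlated at 0.706, 0.351 and 0.411 in EKO-labelled cells. In CtrV cells the values were 0.077, 0.179 and 0.373. Same-numbered libraries thus correlated for replicates 1 to 3 between the OVA-pulsed lines and within the EKO-labelled line. Within CtrV cells and between the unpulsed lines, only replicate 3 came near the values between the OVA-pulsed lines. Libraries of different numbers were not compared, so this check cannot show that the numbers pair libraries. The replicates of a group differed by more than counting noise. Counting error alone allows up to 3 counts behind a count of 0.

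Alternatives were RLE normalization, limma 3.58.1 voom, DESeq2 1.42.0, a fit without the replicate block, no filter or a filter of 10 or more counts throughout, a stricter adjusted p (0.01), a minimum absolute log2 fold change of 1, a fit of the compared groups by themselves, and removal of single libraries. The average over pulsing and the fit without all replicates 1 were added after seeing the data. Exon lengths and positions came from GENCODE vM21 (GRCm38), which may differ from the annotation used for counting, and promoters from RefSeq (GRCm38.p6). Named are all listed PYHIN genes, the other genes of the array, 2 to 4 examples of each companion list, and the 5 genes most like the family by each measure. The members and lists were chosen with earlier results of these data known. An item of the interferon list and a searched motif are not reported here.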

Additional observations from a re-analysis of the deposited data

How the results depend on the processing

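Mndal lower, and Ifi203 and Ifi209 higher, in EKO-labelled cells kept direction and call in every alternative that was fitted, with and without OVA. Aim2 falls short of an absolute log2 fold change of 1. With OVA its call was also lost at an adjusted p under 0.01, and in 3 of the 6 fits without a single library. Neither RLE normalization nor a minimum of 10 counts changed the number of PYHIN genes called. With OVA, 4 genes were called (47% of all genes). Without the expression filter it was 7 of 9, Ifi213 included (23.2% of all genes). When libraries were left out it was between 3 and 7 (36.8 to 42.5% of all genes). The highest count came without CtrV_OVA replicate 1 and also without all replicates 1. Without OVA, 6 genes were called (46.4% of all genes). It was 9 of 9 without the filter (22.5% of all genes), and 4 to 8 when libraries were left out (38.2 to 43.4%). Averaged over pulsing, 8 genes were called, against 60.5% of all genes. An adjusted p under 0.01 left 5 (47.8% of all genes), and an absolute log2 fold change of at least 1 left 4 (8.91%). Between 6 and 8 were called when libraries were left out (54.9 to 59.2% of all genes). Without the replicate block the counts stayed at 4 with OVA, 6 without and 8 on average, and no call of a PYHIN gene changed. The shares of all genes were then 38.4%, 37.9% and 53.1%, with 5413 genes in place of 6619 called with OVA. Requiring an absolute log2 fold change of 1 or more left 3 PYHIN genes with OVA, against 1268 of all tested genes (9.01%). Without OVA it left 4, against 1241 (8.81%), and on average 4, against 1254 (8.91%). Some genes that missed the threshold passed elsewhere: Ifi204 with OVA with limma voom (adjusted p = 0.033), without the filter (0.017) and in the compared groups by themselves (0.046), Ifi205 in the last 2 of these settings with OVA (0.023 and 0.017) and without (0.028 and 0.026), and Ifi211 unpulsed in these 2 (0.014 and 0.0025) and with DESeq2 (0.024).

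Signs turned only in the comparisons of pulsing, in which no gene was called. With limma voom, Ifi204 in EKO_OVA against EKO_ut was 0.017. When libraries were left out, the dependence of the line difference on pulsing ranged from -0.88 to 0.30 for Ifi211, -0.19 to 0.52 for Ifi205, -0.71 to 0.71 for Ifi204 and -0.56 to 0.20 for Ifi207. The effect of OVA in CtrV cells ranged from -0.54 to 0.66 for Ifi211, -0.041 to 0.15 for Aim2, -0.15 to 0.42 for Ifi203, -0.0088 to 0.95 for Ifi209, -0.42 to 0.34 for Ifi205, -0.72 to 0.67 for Ifi204, -0.32 to 0.36 for Ifi207 and -0.15 to 0.18 for Mndal. In EKO-labelled cells it ranged from -0.62 to 0.14 for Ifi211, -0.48 to 0.013 for Ifi203, -0.30 to 0.40 for Ifi209, -0.10 to 0.55 for Ifi205, -0.44 to 0.38 for Ifi204 and -0.45 to 0.064 for Ifi207. The cause of these shifts was not tested. Fits of the compared groups by themselves could not be made for the dependence. Ifi213, with at most 29 counts per library, and the low genes Ifi205, Ifi209 and Ifi211 are limited by depth, and the family's shared sequence limits how firmly counts can be assigned to single genes.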
